A study of Mus musculus with 16 samples.

Results

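The 10 genes described here flank Adam8, the mutated gene of the study, on distal chromosome 7 of the mouse: Dpysl4, Lrrc27, Pwwp2b, Inpp5a and Kndc1 on its centromeric side, and Tubgcp2, Zfp511, Echs1, Paox and Mtg1 on its telomeric side. They were chosen by name as neighbours of Adam8, with earlier results of these data known, and are 10 of the 49315 genes in the deposited table. Expression had been measured by bulk RNA sequencing of tail intervertebral discs, freed of their endplates, with 4 discs pooled per mouse, so that each of the 16 libraries stood for 1 animal. The 4 groups were wild-type intact (3 mice), Adam8EQ mutant intact (4 mice), wild-type injured (4 mice) and Adam8EQ mutant injured (5 mice). The series title sets the Adam8 mutant against DBA, an inbred strain name. The labels give neither age, sex, time after injury nor the way of injury. They also do not give the strain in which the EQ allele was made, zygosity or number of backcrosses. Levels are given in TPM, read counts scaled by gene length and library total. A difference between groups is that of their log2(TPM + 1) means, on which low genes appear to differ by less than they do.

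An allele made in one strain and bred onto another carries along a stretch of the donor chromosome. Genes within this stretch can differ between mutant and control mice because their own sequence differs, whatever the mutated gene does; such differences are called passenger effects. The flanking genes have varied functions, from mitochondrial metabolism to microtubule nucleation. Adam8 itself encodes a membrane-anchored metalloprotease that is made by inflammatory cells and in injured tissue.

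The 10 genes span 1064.8 kb of GRCm38, a stretch with 20 protein-coding genes in the table besides Adam8, these 10 included. The closest of the 10 is Tubgcp2, whose end lies 3.393 kb from Adam8 (chromosome 7, 139978932 to 139992562, minus strand). It is followed by Kndc1 at 37.4 kb, Zfp511 at 43.8 kb, Echs1 at 113.1 kb, Paox at 123.2 kb and Mtg1 at 145.0 kb. Inpp5a lies 399.3 kb away, Pwwp2b 709.0 kb, Lrrc27 736.0 kb and Dpysl4 876.2 kb. Several of them share bases with a gene on the opposite strand. Tubgcp2 and Zfp511 overlap by 279 bases at their starts, Echs1 and Paox by 678 bases, Lrrc27 and Stk32c by 320 bases, and Mtg1 and Sprn by 159 bases. Whether reads were counted by strand is not given in the sources used here, so reads within these overlaps may have been credited to either gene.

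The start regions of the 3 genes with the smallest unadjusted p for the genotype difference averaged over treatments, Mtg1, Paox and Lrrc27, are shown so that the reference sequence stands beside their values. They were taken from RefSeq for GRCm38.p6, the mouse reference, and cover 250 bases before to 50 bases after the annotated start, on the plus strand (for Paox and Lrrc27, the more upstream of their listed starts). The Paox window lies inside the GENCODE gene used for distances and overlaps, which begins at 140115799. It does not cover the bases that Paox shares with Echs1. Capitals mark matches to the GC box (GGGCGG) and to the ETS core (CCGGAA) on either strand. Of the 10 genes, 7 had an entry in that table.

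Mtg1, chr7:140137314-140137613: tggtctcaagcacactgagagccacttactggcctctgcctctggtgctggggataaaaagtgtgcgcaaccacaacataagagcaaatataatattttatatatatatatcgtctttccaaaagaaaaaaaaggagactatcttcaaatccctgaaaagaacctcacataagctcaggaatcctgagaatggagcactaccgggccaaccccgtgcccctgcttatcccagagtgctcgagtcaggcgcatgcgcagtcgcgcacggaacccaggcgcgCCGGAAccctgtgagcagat
Paox, chr7:140125407-140125706: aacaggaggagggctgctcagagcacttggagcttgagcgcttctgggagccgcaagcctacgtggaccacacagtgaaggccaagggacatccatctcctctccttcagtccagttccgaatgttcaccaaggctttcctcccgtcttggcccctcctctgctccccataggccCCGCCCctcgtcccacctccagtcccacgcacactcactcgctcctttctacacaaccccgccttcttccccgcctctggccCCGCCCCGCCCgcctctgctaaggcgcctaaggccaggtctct
Lrrc27, chr7:139212738-139213037: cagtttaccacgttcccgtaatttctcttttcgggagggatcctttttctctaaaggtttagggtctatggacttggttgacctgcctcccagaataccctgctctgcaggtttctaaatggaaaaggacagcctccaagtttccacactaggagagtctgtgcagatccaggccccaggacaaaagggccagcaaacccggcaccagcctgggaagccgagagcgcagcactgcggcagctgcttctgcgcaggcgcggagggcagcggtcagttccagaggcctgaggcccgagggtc

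The Paox window held 3 GC box matches, and the Mtg1 window held 1 ETS core match. Neither set of letters was found in the Lrrc27 window. Among all 32851 windows of this length, 35.7% held a GC box and 14.9% an ETS core, so these matches are common letters and single out no site. The sequence of the mice studied was not analysed here.

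The libraries held 10218595 to 24876585 reads as implied by their TPM values. Disc cartilage genes were high in all 16 libraries, though uneven. Acan, the main disc proteoglycan, lay between 2426 and 7024 TPM, and Sox9, the cartilage transcription factor, between 353 and 972 TPM. Col2a1 ran more widely, from 658 to 9312 TPM. The summed level of 5 cartilage markers was 10861 to 13616 TPM in wild-type intact and 11815 to 14363 TPM in mutant intact discs. It was 5164 to 17970 TPM in wild-type injured and 3863 to 12408 TPM in mutant injured discs. Injured wild-type mice 1 and 2 stood apart from mice 3 and 4 in Adam8 itself, at 3.52 and 5.59 TPM against 66.3 and 54.9 TPM. Leaving both out also moved results over all genes. Genes called for injury in the wild type went from 28 (0.116%) to 3200 (13.2%). Those called for genotype in injured discs went from 222 (0.918%) to 4 (0.0165%). The names of the mutant libraries begin with A8 in mice 1 and 2 of each treatment and with M in the others, while those of all wild-type libraries begin with D. Naming and genotype therefore cannot be told apart. Values without these libraries, or by name, are given where they moved a result.

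The neighbours differed widely in level. Inpp5a, a phosphatase that inactivates the calcium-releasing messenger inositol trisphosphate, had a mean of 40.3 TPM over the 16 libraries, and Tubgcp2, a subunit of the gamma-tubulin complex that nucleates microtubules, 38.7 TPM. Pwwp2b, a chromatin protein with a PWWP domain, lay at 21.7 TPM and the zinc finger gene Zfp511 at 20.1 TPM. Echs1, the enoyl-CoA hydratase of mitochondrial fatty acid oxidation, lay at 15.7 TPM, and Mtg1, a GTPase of the mitochondrial ribosome, at 13.4 TPM. Lrrc27, a leucine-rich repeat gene, followed at 10.3 TPM and Paox, a peroxisomal polyamine oxidase, at 7.02 TPM. In this order the library ranges of adjacent genes overlapped, except that every Tubgcp2 value, from 32.8 TPM up, lay above every Pwwp2b value, up to 29.6 TPM. TPM depends on the gene length the authors used, which is not stated. Below these stood a pair of genes best known from neurons. Dpysl4, of the collapsin response mediator family, had 1.70 TPM on average, and none of its values reached the lowest of Paox. Kndc1, a dendritic guanine nucleotide exchange factor, was close to 0.

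Kndc1 was listed at 0.0317, 0.0587 and 0.0362 TPM in wild-type intact mice 1 to 3 and at 0, 0.0294, 0.0276 and 0.0868 TPM in mutant intact mice 1 to 4. In injured discs it was listed at 0 in all 5 mutants and in wild-type mice 1, 2 and 4, with 0.0281 TPM in mouse 3. These values amount to 10 implied reads in all libraries together and at most 3 in one, too few to compare. Kndc1 did not reach 1 TPM in any library and was not tested, which leaves 9 tested genes among the 10.

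**Figure D1:**
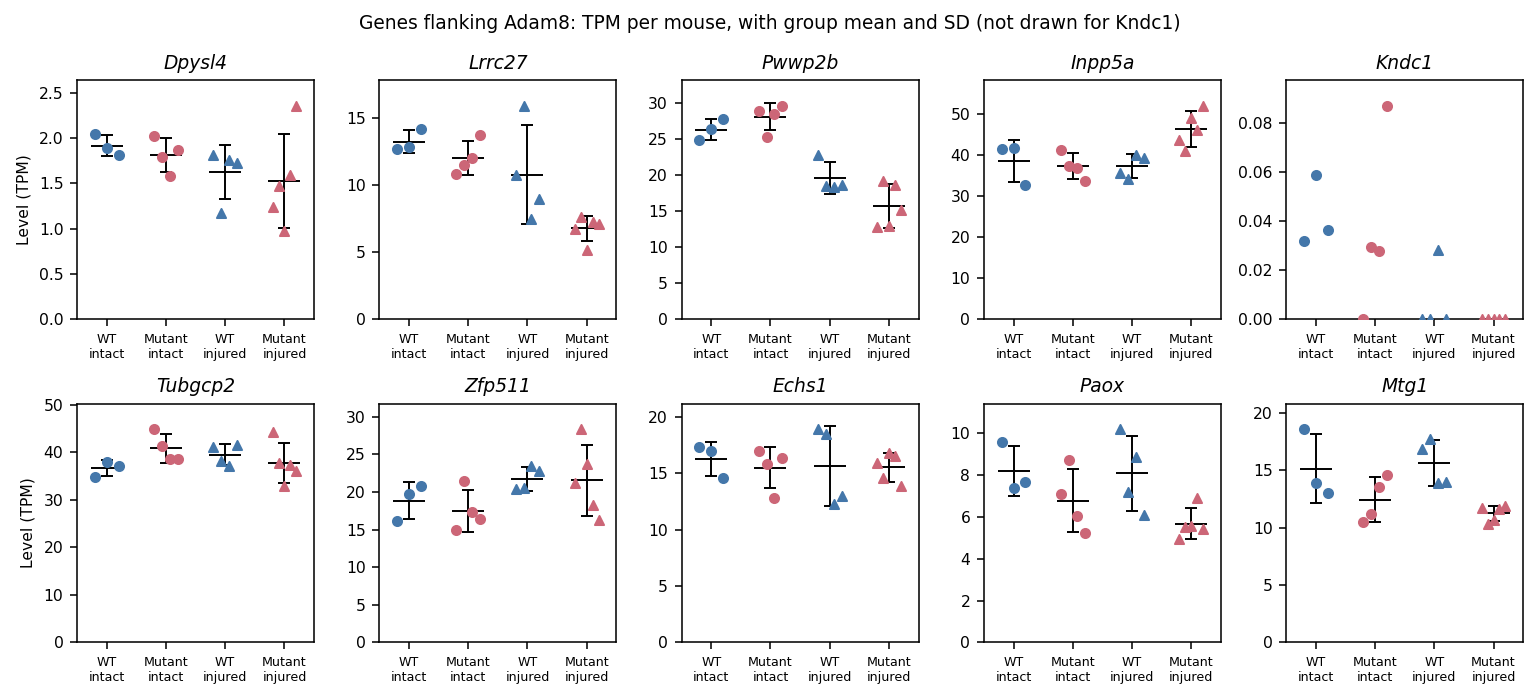
Level of each flanking gene in TPM (vertical axis, from 0) for every mouse, in order along the chromosome; points are mice, bars the group mean and SD (3, 4, 4 and 5 mice; none drawn for Kndc1). In Mtg1 the 5 injured mutants, at 10.4 to 11.9 TPM, lie below the 4 injured wild-type mice, at 13.9 to 17.7 TPM, while in Echs1 and Zfp511 the groups overlap.

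Whether any neighbour differed between genotypes in uninjured tissue was asked first. In intact discs 0 of the 9 tested genes passed an adjusted p of 0.05 (limma, Benjamini-Hochberg over 24188 genes), against a background of 0.0165% of all tested genes. At an unadjusted p under 0.05 there were also 0 of 9, against 3.78%. The fitted differences, mutant minus wild type, ran from -0.26 in Mtg1 to 0.15 in Tubgcp2 with a median of -0.07, beside a median of -0.01 over all tested genes. The 95% confidence intervals of the 9 genes all lay within 0.625-fold and 1.32-fold of the wild-type level on the TPM + 1 scale. Single genes had narrower intervals, such as 0.821-fold to 1.15-fold in Inpp5a and 0.958-fold to 1.29-fold in Tubgcp2.

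Tubgcp2, of the 10 the closest to Adam8, was the only one of the 9 whose genotype groups did not overlap in intact discs. Its values were 34.7, 38.0 and 37.1 TPM in the wild type and 44.8, 41.2, 38.54 and 38.53 TPM in mutants. The lowest mutants and the highest wild-type mouse were less than 1 TPM apart. The difference of 0.15 ± 0.10 in Tubgcp2 (SE, limma adjusted p 1, 95% interval -0.06 to 0.36) did not pass the threshold, and groups that do not overlap occurred in 6.18% of all tested genes. In injured discs the difference was -0.07 ± 0.09 (SE, limma adjusted p 0.681), with overlapping groups at 37.1 to 41.6 TPM in the wild type and 32.8 to 44.3 TPM in mutants.

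The lowest fitted differences in intact discs belonged to Mtg1 and Paox, which lie next to each other. Mtg1 read 18.6, 13.9 and 13.0 TPM in wild-type mice and 10.5, 11.1, 13.6 and 14.5 TPM in mutants. The groups overlapped, with mutants 1 and 2 below every wild-type mouse. The difference was -0.26 ± 0.15 (SE, limma adjusted p 1). It was -0.43 with only the mutants named A8 and -0.09 with only those named M. Paox read 9.55, 7.37 and 7.67 TPM in the wild type and 7.09, 8.72, 6.02 and 5.24 TPM in mutants, a difference of -0.26 ± 0.20 (SE, limma adjusted p 1). It was -0.04 with the mutants named A8 and -0.47 with those named M, the reverse of the order in Mtg1. Skeletal muscle markers also differed in level between genotypes in intact discs. The summed level of 5 of 5 such markers was 136 to 539 TPM in the wild type and 83.8 to 97.9 TPM in mutants, with 0 of them at 0 TPM throughout a group. The summed red blood cell markers (3 of 3 found) stood at 256 to 716 TPM and 66.8 to 266 TPM, which overlap. Nucleus pulposus or notochord markers stood at 13691 to 14017 TPM and 6203 to 13513 TPM, without overlap. Of these 5 markers, 1 was at 0 TPM throughout the wild-type intact group. Neutrophil markers, all low, stood at 1.69 to 3.59 TPM and 0.337 to 1.14 TPM, with 2 of 5 at 0 TPM throughout each group. The sums for disc cartilage, macrophages, endothelium, bone, and neurons and glia overlapped between genotypes. The part of any list in the differences was not tested.

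In injured discs, again 0 of the 9 genes passed the adjusted threshold, against a background of 0.918% of all tested genes. The smallest adjusted p among them was 0.101, in Mtg1. At an unadjusted p under 0.05 there were 5 of 9, against 20.3% of all tested genes. Mtg1, Lrrc27, Pwwp2b and Paox had lower values in mutants (4 of 9, against 15.2%) and Inpp5a had higher ones (1 of 9, against 5.15%). The median difference of the 9 genes was -0.07, beside -0.09 over all tested genes.

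Mtg1 was the clearest of these. It read 16.9, 17.7, 13.9 and 14.0 TPM in injured wild-type mice 1 to 4 and 11.7, 10.4, 10.6, 11.6 and 11.9 TPM in injured mutants 1 to 5. Every mutant lay below every wild-type mouse. Mtg1 and Inpp5a were the 2 of 9 genes whose groups did not overlap, against 4.77% of all tested genes. The means were 15.6 ± 1.98 TPM (SD, n = 4) and 11.2 ± 0.690 TPM (SD, n = 5). The difference of -0.44 ± 0.13 (SE, limma adjusted p 0.101, unadjusted p 0.00515) corresponds to a ratio of 0.739, with a 95% interval of 0.607 to 0.900. It was -0.46 with only the mutants named A8 and -0.42 with only those named M. Without injured wild-type mice 1 and 2, where 0.0165% of all tested genes were called, it was -0.29 (limma adjusted p 0.727, unadjusted p 0.0977).

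Paox, its neighbour, read 10.2, 7.17, 8.84 and 6.09 TPM in injured wild-type mice and 4.92, 5.52, 5.55, 6.91 and 5.43 TPM in injured mutants. The groups overlapped only in that wild-type mouse 4 lay below mutant 4. The difference was -0.43 ± 0.17 (SE, limma adjusted p 0.183), and -0.33 without wild-type mice 1 and 2. Echs1, which overlaps Paox on the other strand, read 18.9, 18.5, 12.3 and 13.0 TPM in the injured wild type and 15.9, 14.6, 16.8, 16.5 and 13.9 TPM in injured mutants. All mutants lay within the wild-type range. The Echs1 difference was 0.01 ± 0.14 (SE, limma adjusted p 0.978, 95% interval -0.29 to 0.31). Array weights gave -0.04, and leaving out wild-type mice 1 and 2 gave 0.28. In intact discs Echs1 read 17.4, 17.0 and 14.6 TPM in the wild type and 17.0, 15.8, 12.8 and 16.4 TPM in mutants, with overlapping groups.

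Lrrc27 read 10.7, 15.9, 7.45 and 8.91 TPM in injured wild-type mice and 6.74, 7.60, 5.13, 7.20 and 7.07 TPM in injured mutants. Wild-type mouse 3 lay inside the mutant range, while mouse 2 was far above it. The difference of -0.56 ± 0.18 (SE, limma adjusted p 0.110) varied with the mice included. Without wild-type mouse 3, where 9.31% of all tested genes were called, it was -0.70 (limma adjusted p 0.0268). With array weights, where 4.42% were called, it was -0.67 (limma adjusted p 0.0494). Without wild-type mice 1 and 2, where 0.0165% were called, it was -0.25 (limma adjusted p 0.769, unadjusted p 0.151). Pwwp2b read 22.8, 18.5, 18.3 and 18.6 TPM in injured wild-type mice and 12.7, 19.1, 12.9, 18.6 and 15.1 TPM in mutants. Mutants 1, 3 and 5 were low and the others within the wild-type range, a difference of -0.31 ± 0.13 (SE, limma adjusted p 0.181), and -0.24 without wild-type mice 1 and 2.

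Inpp5a was the only one of the 5 with higher values in injured mutants. It read 35.6, 34.1, 40.05 and 39.4 TPM in wild-type mice and 43.6, 41.0, 49.0, 46.0 and 52.0 TPM in mutants, so the groups did not overlap. The difference was 0.30 ± 0.10 (SE, limma adjusted p 0.118), 0.18 with only the mutants named A8 and 0.39 with only those named M, and 0.21 without wild-type mice 1 and 2. In intact discs the genotypes of Inpp5a overlapped, at 32.7 to 41.7 TPM and 33.6 to 41.2 TPM, with a difference of -0.04 ± 0.11 (SE, limma adjusted p 1).

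Zfp511 and Dpysl4 overlapped between genotypes in both treatments. Zfp511 read 16.1, 19.7 and 20.7 TPM in wild-type intact and 14.9, 21.4, 17.3 and 16.4 TPM in mutant intact discs. In injured discs it read 20.4, 20.5, 23.5 and 22.8 TPM in the wild type and 21.2, 28.3, 23.7, 18.2 and 16.3 TPM in mutants, where the spread was wider. Dpysl4 read 2.04, 1.89 and 1.82 TPM in wild-type intact and 2.03, 1.79, 1.58 and 1.86 TPM in mutant intact discs. In injured discs Dpysl4 read 1.82, 1.18, 1.76 and 1.73 TPM in the wild type and 1.24, 1.48, 0.972, 1.59 and 2.36 TPM in mutants, which held both the lowest and the highest value. The injured differences were -0.04 ± 0.15 in Zfp511 and -0.07 ± 0.18 in Dpysl4 (SE, limma adjusted p 0.918 and 0.866). Quantile normalization turned both, to 0.05 and 0.12, and median-of-ratios scaling turned those of Zfp511 and Tubgcp2, to 0.07 and 0.04. Quantile normalization moved the median of all genes in injured discs from -0.09 to 0.003.

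**Figure D2:**
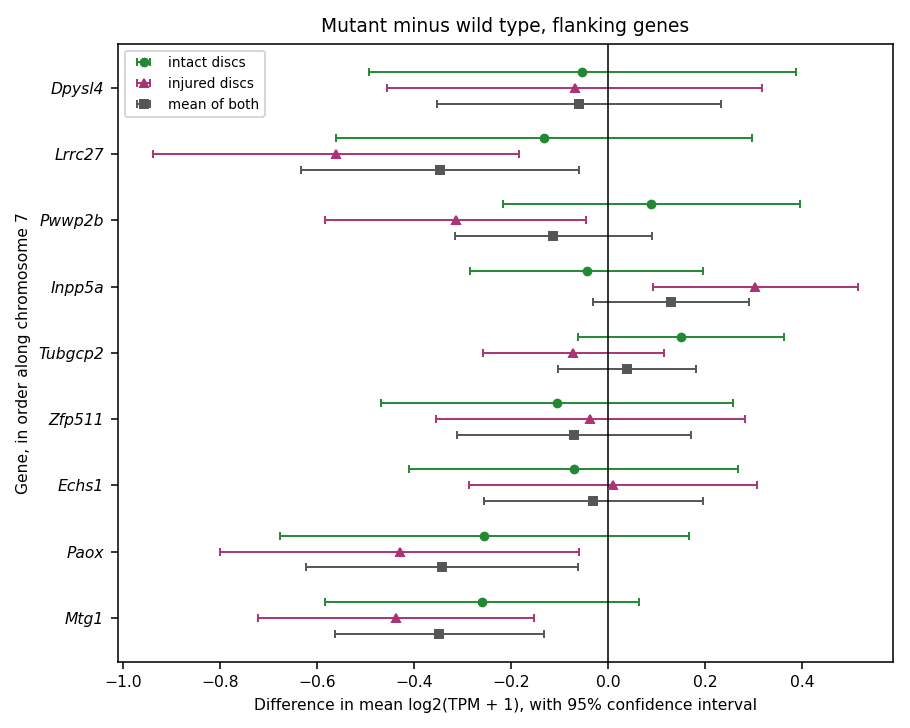
Mutant minus wild-type difference of mean log2(TPM + 1) (horizontal axis) for the 9 tested genes, in order along chromosome 7; points are limma estimates and bars 95% confidence intervals, for intact discs, injured discs and their mean. All 9 intact intervals include 0, and among the means of both, those of Lrrc27 (-0.35), Paox (-0.34) and Mtg1 (-0.35) do not reach 0 before adjustment.

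A difference carried by flanking sequence could appear with and without injury, so the genotype difference was also averaged over both treatments, which use separate mice. None of the 9 genes passed (0 by limma at an adjusted p under 0.05, background 0.0537%), and 3 had an unadjusted p under 0.05, against 12.9% of all tested genes. These 3 were all lower in mutants, against 9.5% of all tested genes. They were Mtg1 at -0.35 ± 0.10 (SE, limma adjusted p 0.237, unadjusted p 0.00364), Paox at -0.34 ± 0.13 (SE, limma adjusted p 0.309) and Lrrc27 at -0.35 ± 0.13 (SE, limma adjusted p 0.310). Mtg1 had a smaller unadjusted p than all but 1.51% of tested genes. Without injured wild-type mice 1 and 2 the values were -0.27 in Mtg1, -0.29 in Paox and -0.19 in Lrrc27. With only the mutants named A8 they were -0.45, -0.28 and -0.35, and with only those named M -0.25, -0.42 and -0.33. The difference was below 0 in both treatments in 5 of the 9 genes, against 34.4% of all tested genes; the others among the 5 were Dpysl4 and Zfp511, whose sign turned as given above. The averaged intervals of the 9 genes lay between 0.645-fold and 1.22-fold. Adam8 itself differed by 0.81 ± 0.61 in the average and by 1.65 ± 0.81 in injured discs (SE, limma adjusted p 0.590 and 0.268). Without injured wild-type mice 1 and 2 these differences of Adam8 were -0.06 and -0.09. In intact discs it differed by -0.03 ± 0.92 (SE).

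All tested genes near Adam8 were then counted in the same fits. Within 1 Mb on either side, 33 genes besides Adam8 were tested, the 9 described above among them. By limma 0 of the 33 passed in intact discs, in injured discs or in the average. Over all tested genes, 0.0165%, 0.918% and 0.0537% passed. Of the other 24, there were 1, 6 and 3 with an unadjusted p under 0.05 in these comparisons. Those are shares of 4.17%, 25% and 12.5%, against 3.78%, 20.3% and 12.9% of all tested genes. The median differences of these 24 genes were -0.11, -0.19 and -0.12, beside -0.01, -0.09 and -0.05 over all. Within 5 Mb, 151 genes were tested and 1 passed, in injured discs, against 0.918% of all tested genes there. It was Kcnq1ot1, an imprinted non-coding RNA 3.21 Mb from Adam8, at -0.47 ± 0.10 (SE, limma adjusted p 0.0462). Of the 222 genes called in injured discs, 14 lay on chromosome 7, and of the 13 called in the averaged comparison and the 4 called in intact discs, 0 did. Chromosome 7 held 1881 of the 24188 tested genes besides Adam8.

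Of 40 other neighbours listed by name, up to 2849 kb away, 38 were found and 30 tested, and 0 passed by limma in a genotype comparison. Those tested were already among the genes counted within 5 Mb, so they are not a separate set. At an unadjusted p under 0.05 there were 2 in intact discs (6.67%, against 3.78% of all tested genes), 7 in injured discs (23.3%, against 20.3%) and 4 in the average (13.3%, against 12.9%). The 3 with the smallest unadjusted p in the average were Prap1, Sirt3 and Ppp2r2d. Prap1, which lies 100.8 kb from Adam8 between Zfp511 and Echs1, had 4.61 ± 0.398 TPM in wild-type intact (SD, n = 3) and 2.17 ± 1.51 TPM in mutant intact discs (SD, n = 4). In injured discs it had 3.10 ± 1.35 TPM (SD, n = 4) and 1.75 ± 0.522 TPM (SD, n = 5), and the averaged difference was -0.75 ± 0.25 (SE, limma adjusted p 0.260). Sirt3, a mitochondrial deacetylase, differed by -0.26 ± 0.10 (SE, limma adjusted p 0.325), and Ppp2r2d, a regulatory subunit of a protein phosphatase, by 0.15 ± 0.06 (SE, limma adjusted p 0.333).

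**Figure D3:**
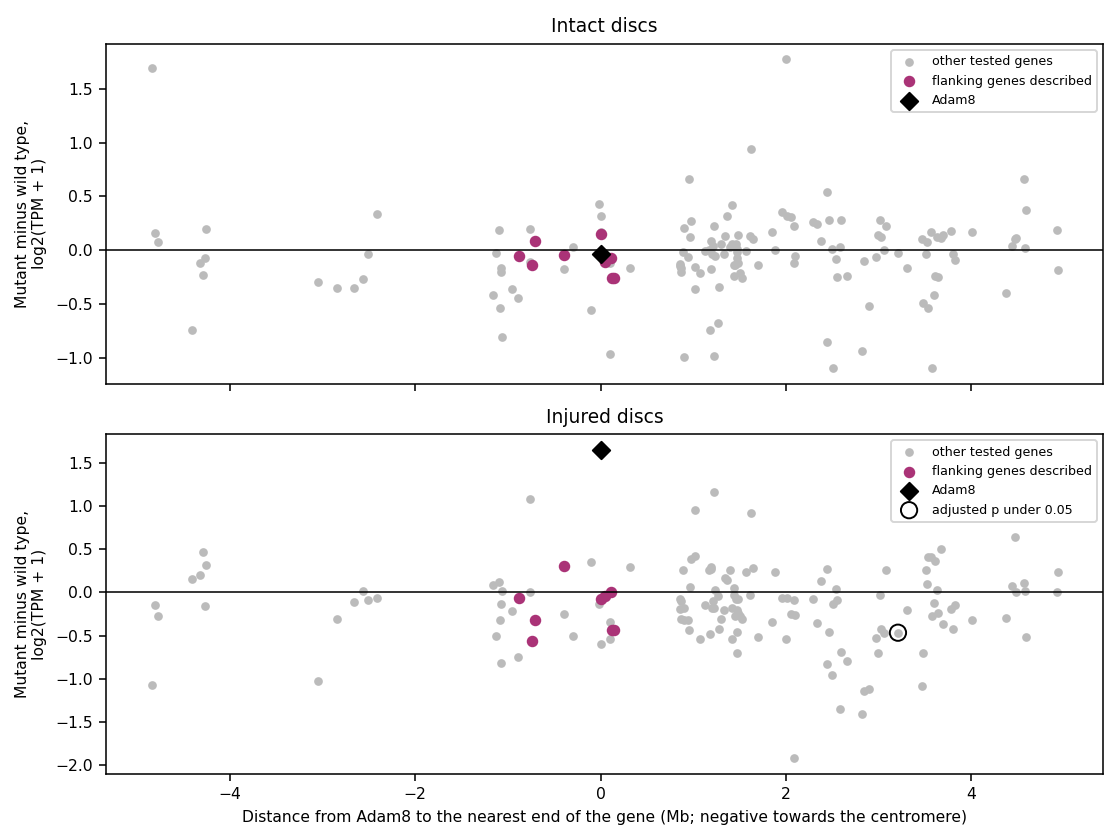
Mutant minus wild-type difference of mean log2(TPM + 1) (vertical axis) for every tested gene within 5 Mb of Adam8, against its distance from Adam8 in Mb, in intact and in injured discs. The 9 flanking genes lie between -0.56 and 0.30, and the 1 circled gene in injured discs, Kcnq1ot1 at -0.47, is the only one with an adjusted p under 0.05.

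Whether the neighbours followed Adam8 in its response to injury was asked next. Adam8 rose by 4.56 ± 0.81 with injury in mutants (SE, limma adjusted p 0.00156), while 3 of its 9 tested neighbours changed there, against 30.8% of all tested genes, a share close to theirs. Lrrc27 and Pwwp2b were lower in injured discs (2 of 9, against 17.7%) and Inpp5a was higher (1 of 9, against 13.1%). With only the mutants named M the change of Adam8 was 3.97 (limma adjusted p 0.0660). Limited to the mutants named A8 or to those named M, 1 of 9 remained called, Pwwp2b each time, while the share of all tested genes called was 14.8% with A8 and 3% with M. Fewer cells of a type and less RNA per cell cannot be told apart in bulk tissue. With injury the summed level of the 5 nucleus pulposus or notochord markers in mutants went from 6203 to 13513 TPM down to 59.9 to 6064 TPM. That of the 4 macrophage markers went from 108 to 134 TPM up to 217 to 1366 TPM. Neutrophil markers went from 0.337 to 1.14 TPM up to 5.26 to 570 TPM, and endothelium markers from 1.59 to 6.83 TPM up to 7.41 to 49.1 TPM. Markers of neurons and glia went from 3.62 to 7.13 TPM up to 7.49 to 279 TPM. The sums for disc cartilage, skeletal muscle, red blood cells and bone overlapped between intact and injured mutants. The part of any of these cells in the changes was not tested.

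Pwwp2b fell by 0.82 ± 0.13 in mutants (SE, limma adjusted p 0.000784). Its values were 28.8, 25.3, 28.4 and 29.6 TPM in intact mutants, all above the 12.7 to 19.1 TPM of injured mutants. In the wild type the intact values of 24.8, 26.3 and 27.8 TPM were also all above the injured ones of 18.3 to 22.8 TPM, at a change of -0.41 ± 0.14 (SE, limma adjusted p 0.193). Groups did not overlap in 2 of the 9 genes for injury in mutants, Pwwp2b and Lrrc27, and in 1 of 9 in the wild type, against 27.2% and 15.6% of all tested genes.

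Lrrc27 fell by 0.75 ± 0.18 in mutants (SE, limma adjusted p 0.00646), from 10.8, 11.5, 12.03 and 13.7 TPM to between 5.13 and 7.60 TPM, again without overlap. With only the mutants named A8 the change was -0.57 (limma adjusted p 0.202), and with only those named M it was -0.90 (limma adjusted p 0.0876). In the wild type, where intact mice had 12.7, 12.8 and 14.2 TPM, the change was -0.32 ± 0.20 (SE, limma adjusted p 0.411). It was -0.63 (limma adjusted p 0.0360) when injured mice 1 and 2 were left out, where 13.2% of all tested genes were called.

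Inpp5a rose by 0.31 ± 0.10 in mutants (SE, limma adjusted p 0.0303), from 33.6 to 41.2 TPM in intact to 41.0 to 52.0 TPM in injured discs, where the lowest injured and the highest intact mutant overlapped. The call was lost on leaving out injured mutant 3 or 5 or intact mutant 2, 3 or 4, with limma adjusted p-values of 0.0577 to 0.0950, and with only the mutants named A8 (0.11, limma adjusted p 0.662) or M (0.46, limma adjusted p 0.0774). It was also lost without the trend in the spread (limma adjusted p 0.0505). In the wild type Inpp5a differed by -0.04 ± 0.11 (SE, limma adjusted p 0.872).

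In the wild type 0 of the 9 genes were called for injury by limma, against 0.116% of all tested genes, and 1 of 9, Pwwp2b, had an unadjusted p under 0.05, against 17.2%. The difference of Adam8 there was 2.87 ± 0.92 (SE, limma adjusted p 0.172), and 4.62 (limma adjusted p 0.00470) without injured mice 1 and 2. None of the 5 genes on the telomeric side of Adam8 was called in mutants, against 30.8% of all tested genes. They were not called in the wild type either, against 0.116%. In mutants they ran from -0.21 ± 0.17 in Paox to 0.27 ± 0.15 in Zfp511 (SE, limma adjusted p 0.393 and 0.186), and Mtg1, the clearest between genotypes, differed by -0.13 ± 0.13 with injury (SE, limma adjusted p 0.501). Tubgcp2, the closest of the described genes, had -0.12 ± 0.09 for mutants and 0.11 ± 0.10 for wild-type mice (SE, limma adjusted p 0.340 and 0.594), with intervals of -0.30 to 0.07 and -0.11 to 0.32.

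**Figure D4:**
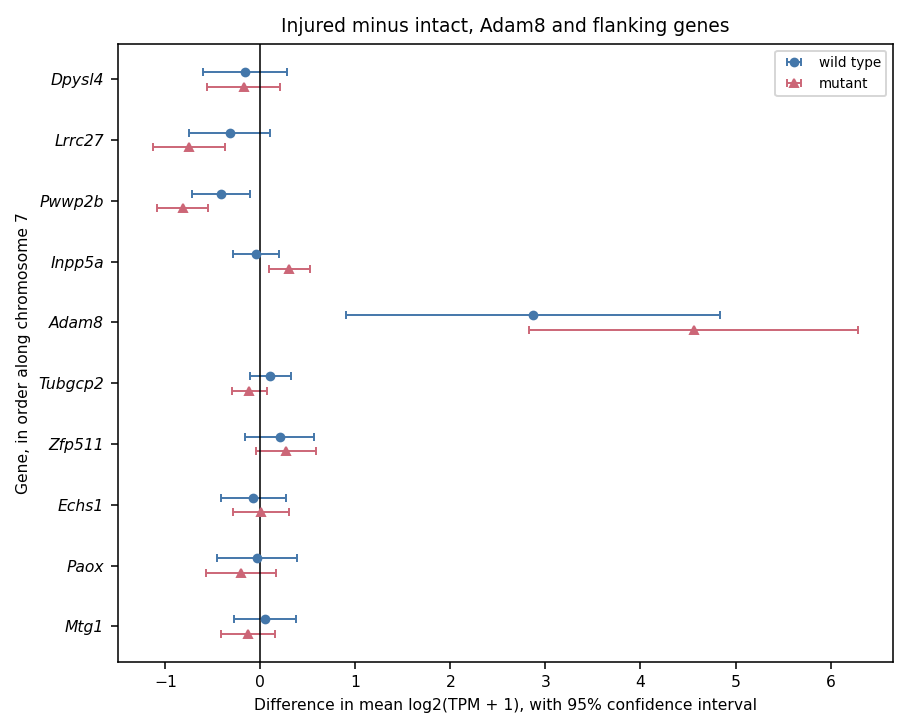
Injured minus intact difference of mean log2(TPM + 1) (horizontal axis) for Adam8 and its 9 tested neighbours, in order along chromosome 7, in wild-type and mutant mice; points are limma estimates and bars 95% confidence intervals. Adam8 stands at 2.87 and 4.56, whereas the neighbours lie between -0.82 and 0.31.

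Whether the injury responses of the neighbours differed between genotypes was tested as an interaction. None of the 9 genes passed (0 by limma, as for all 24188 genes, a background of 0%), and 1 of 9 had an unadjusted p under 0.05, against 8.18%. That gene was Inpp5a, at 0.35 ± 0.15 (SE, limma adjusted p 0.578), which was 0.15 with only the mutants named A8 and 0.51 with only those named M. Pwwp2b followed at -0.40 ± 0.19 and Lrrc27 at -0.43 ± 0.27 (SE, limma adjusted p 0.615 and 0.699). The interaction of Mtg1 was -0.18 ± 0.20 (SE, limma adjusted p 0.840, 95% interval -0.61 to 0.25). Without injured wild-type mice 1 and 2 the interaction was -0.12 in Lrrc27 and -0.03 in Mtg1. With only the mutants named A8 it was -0.25 in Lrrc27 and -0.03 in Mtg1, and with only those named M it was -0.58 and -0.33.

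Genes with a Gm or Rik symbol, or with only an identifier, were left out of the search for patterns like that of Mtg1. Among the other tested genes, the 3 most like Mtg1 over the 16 libraries lay on other chromosomes. D10Wsu102e on chromosome 10 had a Pearson r of 0.93 with Mtg1, Etnk2 on chromosome 1 of 0.86 and Bloc1s6os on chromosome 2 of 0.85, across log2(TPM + 1) values that share groups and libraries. All 3 were low, at 3.22 to 6.31 TPM, 0.515 to 3.51 TPM and 0 to 1.95 TPM. Among the flanking genes, the r of Mtg1 was 0.61 with Lrrc27, 0.51 with Paox, 0.27 with Echs1, 0.27 with Pwwp2b and 0.16 with Dpysl4. It was -0.14 with Tubgcp2, -0.24 with Zfp511 and -0.49 with Inpp5a, and -0.44 with Adam8. These are descriptions of 16 libraries that fall into 4 groups.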

How the data were processed

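TPM values for 49315 genes in 16 libraries were deposited by the authors as 1 table. Per the submitters' processing notes, GRCm38 and bcl2fastq 2.20 were used; the aligner, counter, annotation and use of strand are not given in the sources used here. Per the labels' protocols, ribosomal RNA was depleted before library preparation, while the molecule label reads polyA RNA. Groups came from sample titles, and columns were matched to samples by library name. Coordinates came from GENCODE M21 (GRCm38), in which 99.3% of identifiers were found. Reads implied by TPM and exon length (94.0% to 94.9% of low values within 0.05 of a whole number) gave the depth, as an approximation.

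The test was limma 3.58.1 in R 4.3.3 (eBayes with trend) on log2(TPM + 1), for the 24188 genes that reached 1 TPM in 3 or more libraries. All 16 libraries entered 1 fit with 4 group means. P-values were Benjamini-Hochberg adjusted over all tested genes, with a threshold of 0.05. The fit was checked on simulated data. The 10 genes and all lists were chosen with earlier results of these data known. By rule, all 10 genes and Adam8 were named, with the 3 listed neighbours of smallest unadjusted p where none passed. The 3 genes most correlated with the leading member were also named, leaving out Gm and Rik symbols and bare identifiers. Of the 40 listed neighbours, 2 were not analysed here; 1 symbol stood on more than 1 identifier and was taken by its GENCODE name. The labels name 1 mouse per library, so errors are between mice. Alternatives are listed in the closing section.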

Additional observations from a re-analysis of the deposited data

Results flagged for a closer look

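Among 32 sets of 4 or 5 mice (10 neighbours and Adam8), single mice stood far from the rest of their group in 5; chance gives about 1 in 20. They were Dpysl4 at 1.18 TPM in injured wild-type mouse 2, Pwwp2b at 22.8 TPM in injured wild-type mouse 1, and Kndc1 at 0.0281 TPM in injured wild-type mouse 3, the only value above 0 in that group. Kndc1 had 10 implied reads in all libraries together, too few to compare, so its flag carries no weight in that count. For Adam8 the flagged values were 2.97 TPM in intact mutant mouse 1 and 264 TPM in injured mutant mouse 2. The neighbours of Adam8 in those 2 mutants did not stand apart from their groups in this way.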

How the results depend on the processing

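Each result was recomputed with a pseudocount of 0.1, no filter, a mean of at least 5 TPM (where Dpysl4 is not tested), array weights, eBayes without the trend, quantile normalization, median-of-ratios scaling, a replicate block, only the groups compared, only the mutants of 1 name prefix, and each mouse left out in turn. Injured wild-type mice 1 and 2 were left out together as a choice made after seeing the data. Only the groups compared could not be used for the averaged difference and the interaction, which need all 4 groups.

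Of the 9 tested genes, none was called in the genotype comparison in intact discs or averaged over treatments, or in the interaction, under any of these. In injured discs 1 was called between genotypes with array weights, where 4.42% of all tested genes were called, and 0 to 1 with a mouse left out; the 1 came without wild-type mouse 3, where 9.31% were called. For injury in mutants 1 was called with only mutants named A8 (14.8% of all tested genes), and 1 with only those named M (3%). For injury in the wild type 1 was called without injured mice 1 and 2 (13.2% of all tested genes). With the replicate block, 2 were called for injury in mutants, since Inpp5a had 0.26 (limma adjusted p 0.116), and 2 without the trend, where its adjusted p was 0.0505. The numbers did not pair the samples: of 21 same-number pairs, 1 had a correlation above 0.1, and 3 of 16 libraries correlated best with their own number. Over all genes, the called count for genotype in injured discs ran from 2 to 1070 against 222, and from 7 to 2253 with a mouse left out, 2253 being without wild-type mouse 3. For injury in mutants it ran from 725 to 8559 against 7438. The cause was not tested.

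All values that turned sign belonged to differences that passed no threshold. With median-of-ratios scaling, the injured genotype difference became 0.037 in Tubgcp2 and 0.070 in Zfp511 and the averaged genotype difference became 0.027 in Echs1. There, the interaction became 0.042 in Dpysl4. With quantile values, the intact genotype difference became 0.00074 in Dpysl4 and 0.015 in Adam8 and the injured genotype difference became 0.12 in Dpysl4 and 0.049 in Zfp511. There, the averaged genotype difference became 0.060 in Dpysl4 and 0.032 in Echs1 and the interaction became 0.12 in Dpysl4. With array weights, the injured genotype difference became 0.0032 in Dpysl4 and -0.044 in Echs1 and injury in the wild type became -0.0057 in Mtg1. There, injury in mutants became -0.018 in Echs1 and the interaction became 0.068 in Dpysl4 and -0.063 in Zfp511. With the replicate block, the injured genotype difference became 0.052 in Zfp511 and injury in the wild type became 0.0093 in Paox. With only mutants named A8, the intact genotype difference became 0.031 in Inpp5a, 0.20 in Adam8 and 0.011 in Echs1 and the injured genotype difference became 0.051 in Tubgcp2, 0.17 in Zfp511 and -0.013 in Echs1. There, the averaged genotype difference became 0.051 in Zfp511 and injury in mutants became -0.099 in Echs1 and 0.021 in Mtg1. There, the interaction became -0.024 in Echs1. With only mutants named M, the averaged genotype difference became -0.040 in Tubgcp2 and injury in mutants became 0.067 in Paox. There, the interaction became 0.085 in Dpysl4, -0.026 in Zfp511 and 0.10 in Paox. Without injured wild-type mice 1 and 2, the injured genotype difference became -0.092 in Adam8 and the averaged genotype difference became -0.063 in Adam8 and 0.10 in Echs1. There, injury in the wild type became 0.049 in Inpp5a and -0.097 in Mtg1 and the interaction became -0.058 in Adam8 and -0.018 in Zfp511. With 1 mouse left out in turn, these turned sign with at least 1 mouse. For the intact genotype difference it ran from -0.27 to 0.073 in Adam8, from -0.15 to 0.012 in Echs1 and from -0.16 to 0.015 in Inpp5a. For the injured genotype difference it ran from -0.18 to 0.015 in Dpysl4, from -0.092 to 0.10 in Echs1 and from -0.14 to 0.052 in Zfp511. For the averaged genotype difference it ran from -0.081 to 0.017 in Echs1. For injury in the wild type it ran from -0.14 to 0.077 in Paox, from -0.046 to 0.20 in Mtg1, from -0.17 to 0.028 in Echs1 and from -0.15 to 0.016 in Inpp5a. For injury in mutants it ran from -0.076 to 0.050 in Echs1. For the interaction it ran from -0.12 to 0.068 in Dpysl4, from -0.033 to 0.17 in Zfp511 and from -0.021 to 0.17 in Echs1. The cause of these turns was not tested.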
